A study of Mus musculus with 7 samples.

Results

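ISG15 is a small ubiquitin-like protein that interferons induce and that is attached to other proteins, and 5 genes of its conjugation system were followed here: Isg15 itself, Uba7, Ube2l6, Herc6 and Usp18. They were taken by symbol from the feature list of the deposited matrices, in which they are 5 of 33696 genes. Earlier results of these data were known when they were chosen. The data are single-cell transcriptomes, captured at the 3′ end in droplets, of 7 tumors, each of which gave 1 library. All 7 tumors were subcutaneous allografts of JW23.3, a mouse malignant peripheral nerve sheath tumor (MPNST) line with mutated Nf1, and they grew in female wild-type C57/B6 hosts aged 5 to 6 weeks. The irradiated group (n = 4) received 5 daily fractions of 2 Gy to the tumor, with the rest of the body behind lead, the control group (n = 3) was untreated, and tumors were taken at day 21. Both groups carried the same line, the sequenced tumors came from that line alone, and every host was female with an intact immune system.

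Isg15 encodes the modifier, which is conjugated to target proteins and can also be secreted. Uba7 encodes the E1 enzyme that activates it, Ube2l6 the E2 enzyme that carries it, and Herc6 the main E3 ligase that transfers it in the mouse. Usp18 encodes the protease that removes ISG15 from proteins and, separately from that activity, binds the interferon receptor subunit IFNAR2 and dampens type I interferon signaling. Type I interferon acts through transcription factors that bind the interferon-stimulated response element (ISRE), and the genes of this system are known interferon targets.

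Because the members share an inducer, the sequences before their start sites are shown first. The RefSeq promoter table (build GRCm38.p6) held 4 of the 5 genes, and Usp18 was not among them. The 250 bases before each start were searched on both strands for the ISRE core GAAANNGAAA and for the interferon-gamma-activated sequence TTCNNNGAA, which reads the same on both strands. An ISRE core was present in 978 of 32851 promoter windows (2.98%), and the second motif in 2306 (7.02%). Isg15 held 3 ISRE matches that overlap each other, between positions -78 and -57 from the start, and no match was found in the windows of the other three genes. The second motif matched in none of the 4 windows. Below, 120 bases are printed 5′ to 3′ on the gene's strand, with ISRE matches in capitals, ending directly before the start for Isg15 (chr4:156200819-156200938, minus strand), Ube2l6 (chr2:84798708-84798827, plus strand) and Herc6 (chr6:57580872-57580991, plus strand). For Uba7 (chr9:107975385-107975504, plus strand) the stretch ends at position -63, because the 62 bases nearest to the start lie in an annotated exon. They let the reader see where the letters of the response element stand in the modifier's own promoter and what stands there in the genes of its 3 enzymes.
Isg15: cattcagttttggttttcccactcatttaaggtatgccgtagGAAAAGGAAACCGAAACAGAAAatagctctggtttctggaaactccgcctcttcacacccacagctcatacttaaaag
Uba7: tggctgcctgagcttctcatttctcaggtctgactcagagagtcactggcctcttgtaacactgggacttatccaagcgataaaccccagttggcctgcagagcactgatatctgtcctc
Ube2l6: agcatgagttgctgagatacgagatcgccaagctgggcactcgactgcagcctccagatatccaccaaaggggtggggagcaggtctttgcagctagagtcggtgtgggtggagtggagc
Herc6: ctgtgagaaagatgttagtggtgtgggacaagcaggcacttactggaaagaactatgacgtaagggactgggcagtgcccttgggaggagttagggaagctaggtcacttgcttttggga

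The files held 39537 cells and 646559899 unique molecular identifiers (UMIs), with a median of 6058.5 to 17930.5 UMIs per cell in the 7 libraries, and 34300 cells passed the filters. Classes were gated on marker genes that exclude the members: 11806 macrophage-like, 1229 T/NK-like and 14808 tumor-like cells, while 5741 kept cells (16.7%) entered no class. Of the 10 genes that led each class by fold over the other two classes, 8 were on the macrophage list, 5 on the T/NK list and 1 (Col11a1) on the tumor list. Xist, which the gate excludes from tumor-like cells, was found in 89.9% of macrophage-like and 90.7% of T/NK-like cells. The study calls the line male, but only 0.979% of tumor-like cells held a UMI of a Y-linked gene (Ddx3y, Uty, Kdm5d or Eif2s3y), against 0.381% of macrophage-like cells. Of the tumor markers, Igf2 was at 0 and the Schwann lineage gene Ngfr was in 0.0878% of tumor-like cells, and the fibroblast marker Pdgfra was in 82.7%, so the class rests on markers such as Prrx1 (97.1%) and on the absence of Xist and Ptprc. T/NK-like cells were shallow, with library medians of 2124 to 5516 UMIs. A total of 190 of 39347 barcodes occurred in more than 1 library.

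Levels are given as CPM, the UMIs of a gene per 1000000 UMIs of its class in a tumor, without a length correction because only 3′ ends were read. In every tumor each of the 5 genes was higher in macrophage-like than in tumor-like cells, and each was also higher in T/NK-like than in tumor-like cells. The 2 immune classes differed from each other gene by gene: Isg15, Uba7 and Ube2l6 were higher in macrophage-like cells, and Herc6 was higher in T/NK-like cells. The tests were edgeR quasi-likelihood fits with the tumor as a block, over 16608 genes, with Benjamini-Hochberg adjustment over all of them.

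Isg15, the modifier, was at 387, 233 and 240 CPM in macrophage-like cells of control tumors 1, 2 and 3 and at 201, 747, 414 and 908 CPM in irradiated tumors 1, 2, 3 and 4. In T/NK-like cells the control values were 175, 185 and 191 CPM and the irradiated values 156, 234, 240 and 345 CPM. In tumor-like cells they were 142, 33.4 and 58.0 CPM in controls and 53.1, 211, 121 and 166 CPM in irradiated tumors. Irradiated tumor 1 was below the highest control in all 3 classes, and the groups overlapped in each. The log2 difference was 2.28 ± 0.21 (SE, adjusted p = 1.97e-08) between macrophage-like and tumor-like cells, 1.01 ± 0.21 (adjusted p = 0.000456) between T/NK-like and tumor-like cells and 1.27 ± 0.21 (adjusted p = 6.70e-05) between macrophage-like and T/NK-like cells.

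Uba7, the activating E1 enzyme, varied least of the 5 genes between tumors, relative to its mean, in macrophage-like and tumor-like cells but not in T/NK-like cells. Its macrophage-like levels were 19.1, 16.01 and 16.6 CPM in controls and 17.5, 25.6, 23.4 and 22.5 CPM in irradiated tumors. Tumor-like cells held 10.0, 7.0 and 5.2 CPM in controls and 7.7, 8.0, 8.4 and 9.6 CPM in irradiated tumors, and the irradiated values lay inside the control range. In T/NK-like cells the levels were 11.7, 9.6 and 9.0 CPM in controls and 13.1, 19.7, 16.1 and 12.6 CPM in irradiated tumors, on a total of 73 UMIs over the 7 tumors. Uba7 was 1.60 ± 0.10 (SE) higher on the log2 scale in macrophage-like than in tumor-like cells (adjusted p = 2.03e-12) and 1.02 ± 0.16 higher than in T/NK-like cells (adjusted p = 7.26e-06).

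Ube2l6, the E2 enzyme, was at 42.9, 26.3 and 26.0 CPM in macrophage-like cells of controls and at 26.9, 65.3, 50.6 and 74.2 CPM in those of irradiated tumors. T/NK-like cells held 30.4, 21.2 and 21.6 CPM in controls and 18.9, 42.1, 47.1 and 42.6 CPM after irradiation. Tumor-like cells held 14.7, 7.8 and 10.4 CPM in controls and 8.8, 17.1, 15.7 and 28.3 CPM in irradiated tumors. In each class irradiated tumors 2, 3 and 4 were above all 3 controls and irradiated tumor 1 was not. Ube2l6 was 1.87 ± 0.10 (SE) higher in macrophage-like than in tumor-like cells on the log2 scale (adjusted p = 3.25e-14) and 0.87 ± 0.13 higher than in T/NK-like cells (adjusted p = 2.94e-06).

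Herc6, the E3 ligase, had the opposite order between the immune classes. It was at 212, 158 and 236 CPM in T/NK-like cells of controls and at 230, 194, 262 and 281 CPM in those of irradiated tumors. Macrophage-like cells held 85.2, 53.5 and 62.4 CPM in controls and 55.3, 111, 104 and 147 CPM in irradiated tumors. Tumor-like cells held 66.0, 22.1 and 27.7 CPM in controls and 31.0, 68.0, 59.4 and 120 CPM in irradiated tumors. T/NK-like cells were above macrophage-like cells in 7 of 7 tumors, with no overlap of the class ranges, and the log2 difference of macrophage-like against T/NK-like cells was -1.02 ± 0.18 (SE, adjusted p = 7.47e-05). Of the 5 HERC genes measured (Herc1, Herc2, Herc3, Herc4 and Herc6 itself), 0 were higher in macrophage-like than in T/NK-like cells. In that comparison 4 of them, Herc6 included, were called lower, beside 26.5% of all genes tested.

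Usp18, the ISG15 protease, was at 53.0, 25.7 and 25.2 CPM in macrophage-like cells of controls and at 25.7, 89.2, 58.8 and 90.0 CPM in those of irradiated tumors. T/NK-like cells held 78.4, 69.4 and 55.8 CPM in controls and 58.3, 68.8, 88.5 and 103 CPM in irradiated tumors. Tumor-like cells held 14.8, 4.8 and 6.6 CPM in controls and 5.8, 24.3, 12.2 and 24.7 CPM in irradiated tumors. Usp18 was 2.52 ± 0.20 (SE) higher in T/NK-like than in tumor-like cells on the log2 scale (adjusted p = 6.20e-10) and 2.30 ± 0.16 higher in macrophage-like than in tumor-like cells (adjusted p = 9.67e-11). Between macrophage-like and T/NK-like cells the difference was -0.22 ± 0.19 and did not pass the test (adjusted p = 0.338), with macrophage-like cells higher in 1 of 7 tumors.

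**Figure D1:**
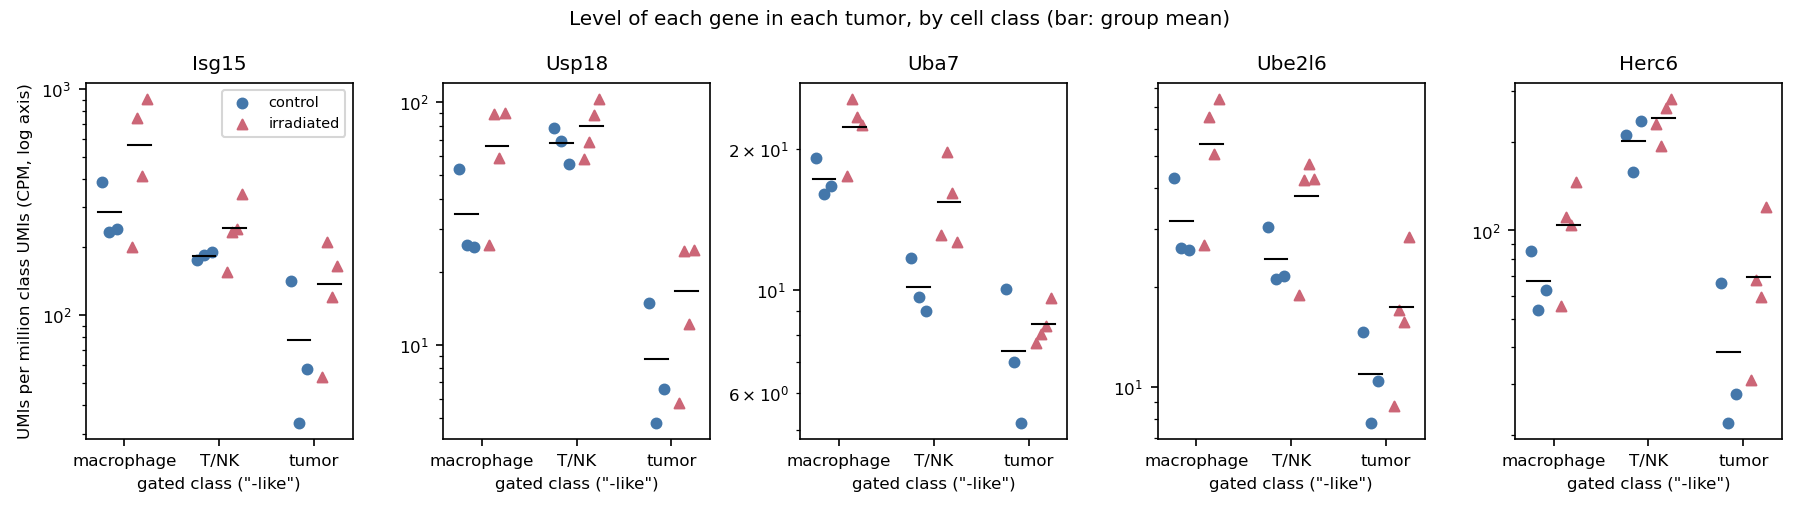
Level of the 5 genes in each tumor (CPM, log axis) in macrophage-like, T/NK-like and tumor-like cells; circles are the 3 control and triangles the 4 irradiated tumors, and bars are group means. Tumor-like cells sit lowest for every gene, Herc6 sits highest in T/NK-like cells, and the groups overlap in each class except for Uba7 in T/NK-like cells.

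Many genes differed between the classes. In macrophage-like against tumor-like cells 34.5% of genes were called higher and 48.4% lower, and 5 of 5 members were called higher. In T/NK-like against tumor-like cells 28.5% were called higher and 45.9% lower, and again 5 of 5 members were called higher, with Uba7 showing the smallest difference (0.57 ± 0.17 SE on the log2 scale, adjusted p = 0.00465). In macrophage-like against T/NK-like cells 33.9% were called higher and 26.5% lower, with 3 members called higher and 1 lower. Median log2 differences of the members were 1.87, 1.01 and 0.87 in these 3 comparisons, beside -0.28, -0.42 and 0.18 over all genes tested. The 23 genes of other ubiquitin-like systems (ubiquitin, SUMO, NEDD8, UFM1 and autophagy conjugation) had medians of 0.04, -0.33 and 0.37, and 10 were called higher and 9 lower in macrophage-like against tumor-like cells. The 20 other interferon-stimulated genes had medians of 2.76, 1.96 and 0.42.

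**Figure D2:**
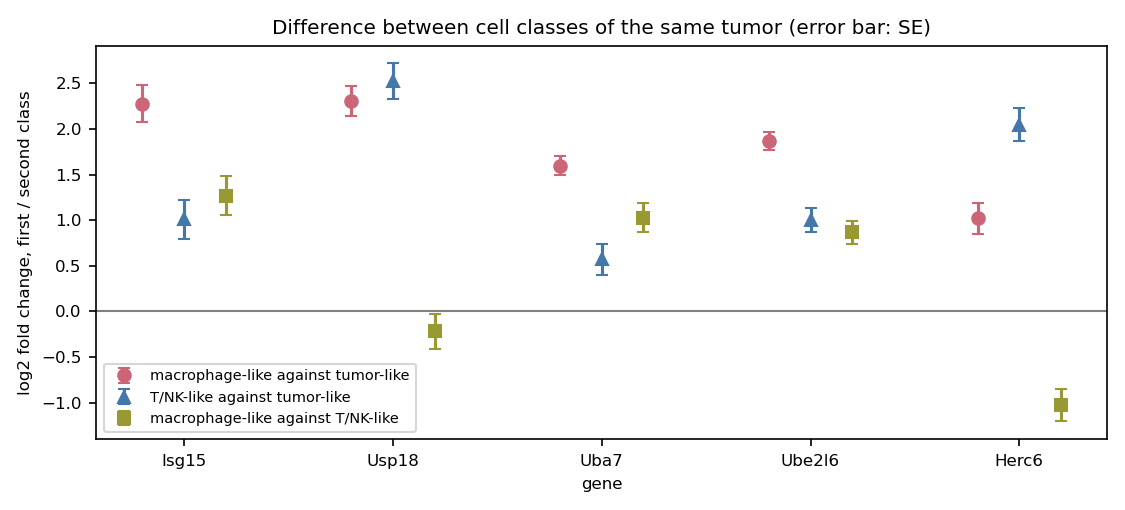
Log2 fold change of each gene between pairs of cell classes of the same tumor, with the standard error (7 tumors, 21 sums). All points of both comparisons with tumor-like cells lie above 0, whereas macrophage-like against T/NK-like cells runs from 1.27 for Isg15 to -1.02 for Herc6.

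RNA released from macrophages can enter other droplets, so the macrophage markers were measured in the other classes. Their summed level in tumor-like cells was 0.194 to 0.403% of that in macrophage-like cells of the same tumor, and in T/NK-like cells 1.08 to 2.05%, values that the gates themselves cap. In tumor-like cells Isg15 was at 14.3 to 36.7% and Herc6 at 41.2 to 81.9% of the macrophage-like level. Usp18 in tumor-like cells was at 18.6 to 27.9%, Ube2l6 at 26.2 to 40.3% and Uba7 at 31.2 to 52.6%. Because the gates limit the markers, the part of free RNA in these levels was not tested.

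Smaller classes were measured for level only. Isg15 ran from macrophage-like (447 ± 276 CPM, SD, n = 7) over endothelial-like (298 ± 83.9), T/NK-like (218 ± 63.6) and fibroblast-like (146 ± 73.7) to tumor-like cells (112 ± 66.0). Its dendritic-like mean of 396 ± 427 CPM rested on irradiated tumor 4 (1283 CPM) and was 249 CPM without that tumor, which moves it from above to below endothelial-like cells. Uba7 was at 24.6 ± 6.84 CPM in endothelial-like and 19.3 ± 12.1 CPM in dendritic-like cells, near its macrophage-like mean of 20.1 ± 3.72 CPM. Ube2l6 was highest in dendritic-like cells (78.5 ± 46.9 CPM), followed by macrophage-like cells (44.6 ± 19.8 CPM). Herc6 in endothelial-like cells (141 ± 45.9 CPM) and dendritic-like cells (162 ± 94.8 CPM) lay between T/NK-like (225 ± 41.5 CPM) and macrophage-like cells (88.4 ± 34.6 CPM). Usp18 was at 58.0 ± 43.9 CPM in dendritic-like and 33.3 ± 13.3 CPM in endothelial-like cells. Neighbours in these orders overlapped between tumors, and these classes held only 104 dendritic-like, 418 endothelial-like and 194 fibroblast-like cells, with a single fibroblast-like cell in irradiated tumor 4.

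Within the macrophage-like class, cells with monocyte markers (Ly6c2, Plac8, Chil3, Ccr2, Vcan) and not the C1q set were compared with cells of the reverse pattern. The monocyte-like cells held more of 4 of the 5 transcripts. Cells with both marker sets (660) or with neither were in neither subset, and their levels were not measured apart. In the 313 monocyte-like cells Isg15 was at 1327 ± 581 CPM (SD, n = 7 tumors), against 369 ± 191 CPM in the 10602 C1q macrophage-like cells. Usp18 was at 165 ± 55.7 against 45.2 ± 22.3 CPM, Herc6 at 238 ± 71.2 against 80.2 ± 27.3 CPM and Ube2l6 at 113 ± 16.8 against 39.4 ± 14.95 CPM. These 4 differences had the same direction in 7 of 7 tumors (two-sided exact sign-flip test over tumors, p = 0.0156 each, which is the smallest it can give, and adjusted p = 0.0352 over 9 subset comparisons). Uba7 was at 21.3 ± 11.7 against 19.8 ± 3.44 CPM, higher in 4 of 7 tumors (exact p = 0.656). Irradiated tumor 4 gave 157 of the monocyte-like cells and irradiated tumor 1 gave 8. In irradiated tumor 1 their levels rested on 12 Isg15, 2 Usp18, 4 Ube2l6 and 6 Herc6 UMIs, and the sign-flip test gives each tumor the same weight.

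**Figure D3:**
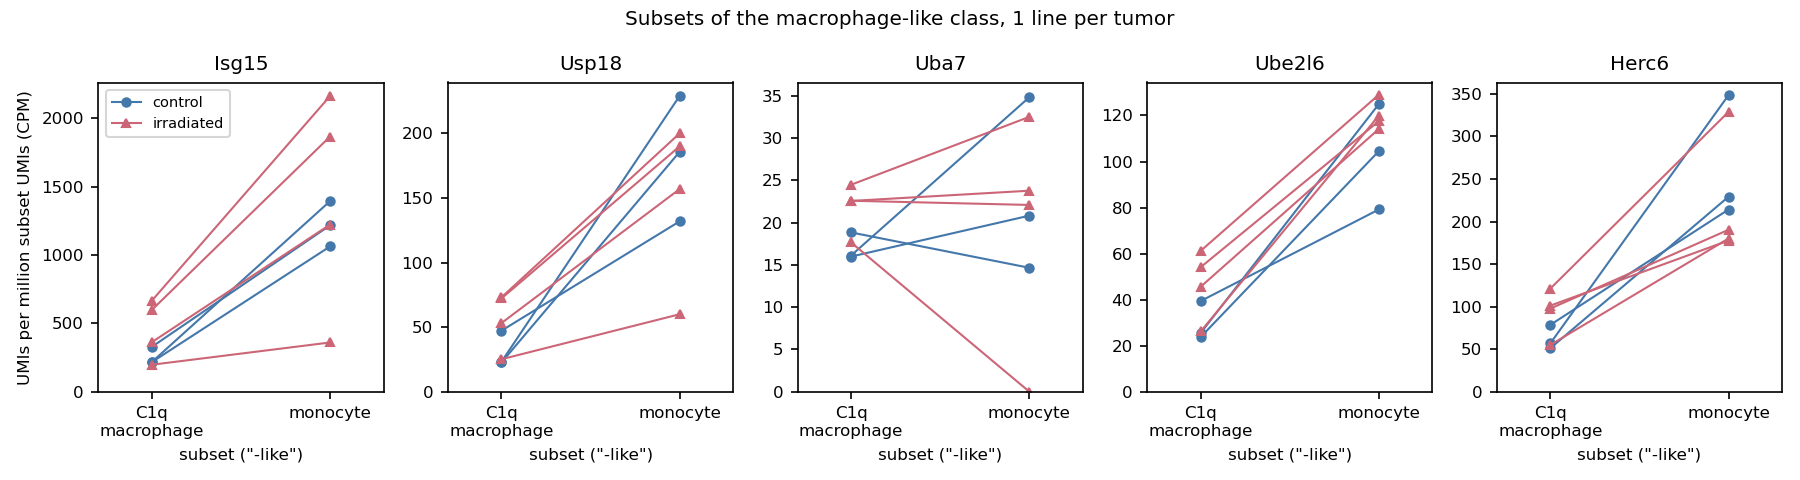
Level of each gene (CPM, linear axis from 0) in C1q macrophage-like and monocyte-like cells, joined within each of the 7 tumors (circles, control; triangles, irradiated). The lines rise in 7 of 7 tumors for Isg15, Usp18, Ube2l6 and Herc6, and in 4 of 7 for Uba7.

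Within the T/NK-like class T-like and NK-like cells were set side by side. Ube2l6 was at 36.8 ± 15.8 CPM (SD, n = 7) in the 908 T-like cells, and 0 UMIs were found in the 62 NK-like cells of the 7 tumors. The count was set beside a floor of 5.46 CPM (3 UMIs over the subset). The pooled T-like level of 40.5 CPM was 7.40-fold that floor, a ratio that leaves out the counting error of the T-like level. The 95% intervals, for counting error only, were 34.6 to 47.0 CPM in T-like and 0 to 6.72 CPM in NK-like cells. No test is given, since 0 UMIs in every tumor fix the sign of each difference, and single tumors were too shallow to read (26770 NK-like UMIs in control tumor 2). Herc6 was at 232 ± 53.4 CPM in T-like and 160 ± 56.2 CPM in NK-like cells, higher in 5 of 7 tumors, and did not pass the test (exact p = 0.141). Usp18 was at 71.9 ± 20.1 and 71.8 ± 38.6 CPM, and Isg15 at 227 ± 79.1 and 147 ± 135 CPM (exact p = 0.969 and 0.234). Uba7 ran the other way, at 12.1 ± 4.20 CPM in T-like and 29.3 ± 32.0 CPM in NK-like cells, T-like higher in 3 of 7 tumors (exact p = 0.406), on 11 UMIs in NK-like cells.

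Irradiated tumors were compared with controls within each class to ask whether the conjugation genes moved with treatment. No gene passed the test in any class, and so no member did, although all 14 fitted member values were above 0. Of all genes tested, 48.9% in macrophage-like, 49.2% in T/NK-like and 51.0% in tumor-like cells were above 0. The 3 classes came from the same 7 tumors and the members varied together, so the 14 values are not independent. In macrophage-like cells the log2 difference was 0.96 ± 0.48 (SE) for Isg15, 0.90 ± 0.46 for Usp18, 0.75 ± 0.34 for Ube2l6, 0.61 ± 0.31 for Herc6 and 0.33 ± 0.13 for Uba7, each with an adjusted p = 0.858 (edgeR quasi-likelihood test, 12772 genes). In tumor-like cells Usp18 was at 0.88 ± 0.55, Herc6 at 0.80 ± 0.48, Isg15 at 0.79 ± 0.56, Ube2l6 at 0.59 ± 0.34 and Uba7 at 0.14 ± 0.18 (edgeR, 17339 genes, adjusted p = 0.9997 for all 5). In T/NK-like cells Ube2l6 was at 0.56 ± 0.31, Isg15 at 0.37 ± 0.21, Herc6 at 0.21 ± 0.17 and Usp18 at 0.18 ± 0.22 (edgeR, 7508 genes, adjusted p from 0.944 to 0.976), and Uba7 was too low to enter the fit.

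The background of these fits was 0% called in macrophage-like, 0% in T/NK-like and 0% in tumor-like cells at the adjusted threshold. At an unadjusted p under 0.05, 603, 395 and 229 genes passed, and DESeq2's Wald test called 4, 1 and 2 genes, none of them a member. Higher in irradiated tumors at that unadjusted level were 2.51% of genes in macrophage-like cells, with 1 of 5 members (Uba7, unadjusted p = 0.0312), 2.34% in T/NK-like cells, with 0 of 4 members, and 0.398% in tumor-like cells, with 0 of 5 members. Every irradiated tumor lay above every control for 2.45%, 4.01% and 1.22% of the genes tested in the 3 classes and for 0 of the members tested; Uba7 in T/NK-like cells, which was not tested, did not overlap.

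The lists are described by their medians, without a test. The members' median log2 difference was 0.75 in macrophage-like, 0.29 in T/NK-like and 0.79 in tumor-like cells, beside -0.005, -0.006 and 0.004 over all genes tested. The 20 other interferon-stimulated genes had medians of 0.88, 0.25 and 0.79, with 0 called; 6, 2 and 1 of them were higher before adjustment (p under 0.05). The ubiquitin-like conjugation list had medians of 0.006, 0.009 and -0.03. Of the 22 further ISG15 pathway genes (receptor, kinase and factor genes, other ligases and known target proteins) the medians were 0.12, 0.19 and 0.09, with 0 called; this list and the interferon-stimulated list share Irf7, Mx1 and Ifit1. Within it Stat2, a factor gene, was at 0.82 ± 0.31 (SE) in macrophage-like cells, whereas the receptor genes Ifnar1 (-0.04 ± 0.15) and Ifnar2 (-0.02 ± 0.11), the kinase gene Jak1 (-0.09 ± 0.08) and Usp16, another reported ISG15 protease (-0.05 ± 0.12), were near 0.

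**Figure D4:**
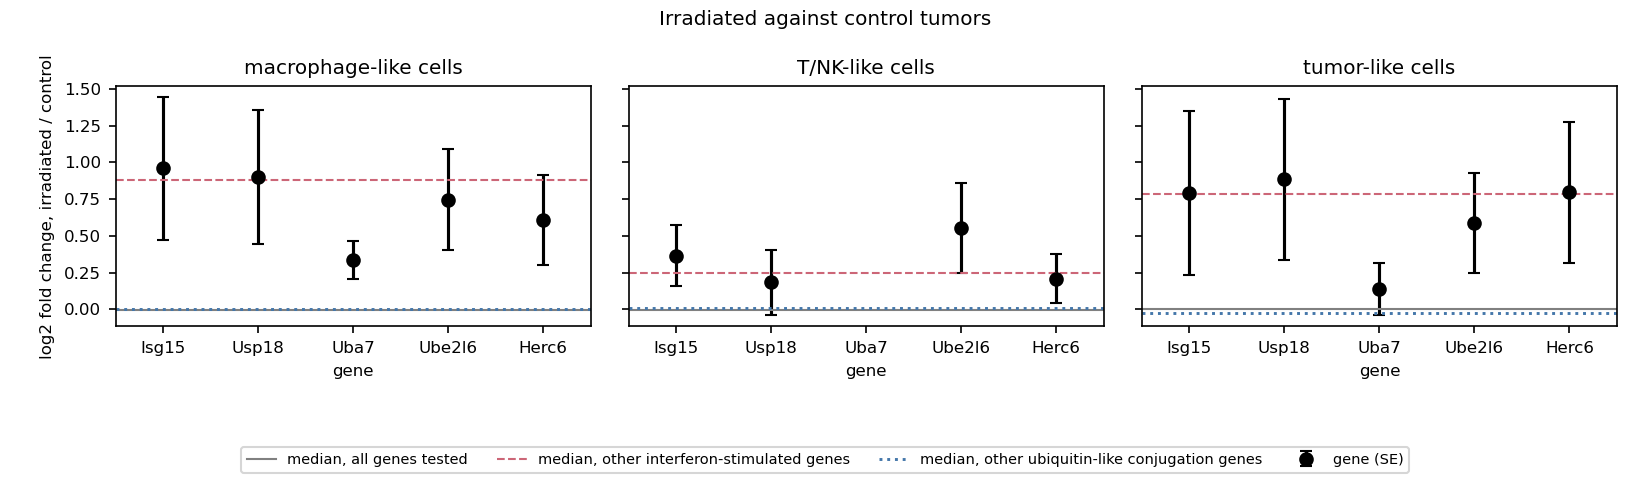
Log2 fold change of each gene in irradiated against control tumors, with its standard error, in 3 classes (4 against 3 tumors); lines are the medians over all genes tested, over 20 other interferon-stimulated genes and over the other ubiquitin-like conjugation genes. Points lie above 0 in each class, with Uba7 below the interferon-stimulated median where it was fitted, and no gene passed the adjusted threshold; Uba7 has no point in T/NK-like cells.

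The treatment difference was also compared between classes, with class-by-group terms and the tumor as a block over 17290 genes. The percentage called was 0% for macrophage-like minus tumor-like, 0% for T/NK-like minus tumor-like and 0% for macrophage-like minus T/NK-like, while 732, 821 and 789 genes had an unadjusted p under 0.05 and DESeq2 called 1 gene. No member was called: Usp18 differed most between macrophage-like and T/NK-like cells, by 0.61 ± 0.36 (SE, edgeR adjusted p = 1), and Isg15 differed by 0.004 ± 0.41 between macrophage-like and tumor-like cells (edgeR adjusted p = 1). A p above the threshold does not show that the classes responded alike.

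Values that moved with the macrophage-like result are given here. Monocyte-like cells were 3.35, 0.554 and 0.901% of macrophage-like cells in controls 1, 2 and 3. In irradiated tumors 1, 2, 3 and 4 they were 0.432, 4.02, 2.66 and 9.75%. The 4 tumors with the most of them were the 4 with the most Isg15. Those 4 also had the deepest macrophage-like cells (medians of 9856 to 12090 UMIs, against 4003 to 5824), and the subset call was not corrected for depth. Per 10000 UMIs of the class, monocyte markers were at 4.2, 2.8 and 3.3 UMIs in controls. In irradiated tumors they were at 2.0, 6.3, 3.9 and 9.9 UMIs. The part of depth in the shares was not tested. In the C1q macrophage-like cells alone the member median was 0.63, with 0 genes called. The libraries were also divided into 2 technical sets, by the one of 63 partitions that left the least variation within sets in number of cells, depth, detected genes, stress transcripts and mitochondrial share: set 1 with irradiated tumor 1 and controls 2 and 3, and set 2 with irradiated tumors 2, 3 and 4 and control 1. The sets were derived from these measures and not from a batch named in the labels. Depth and stress transcripts also differed between cell classes, so the name technical does not stand for a known batch. The sets are weakly separated, with 0.581 of the variation left within them, against 0.628 for the next best partition. They differed in cell number (7291 to 8452 against 2859 to 6134 cells) and in median depth (6058.5 to 9507 against 9990 to 17930.5 UMIs), while their ranges of mitochondrial share and stress transcripts overlapped. Within sets 1 and 2 the member median was -0.02 and 0.56 for macrophage-like cells, -0.09 and 0.36 for T/NK-like cells, then 0.22 and 0.27 for tumor-like cells. With the set as a term in the fit it was 0.32, 0.20 and 0.21. The part of the sets in the result was not tested.

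The share of cells with at least 1 UMI of a member was compared after thinning each cell to 2000 UMIs, which left out 398 irradiated and 769 control macrophage-like cells, 94 and 132 T/NK-like cells and 212 and 147 tumor-like cells. In macrophage-like cells Isg15 was found in 39.2 ± 15.2% of cells of irradiated tumors (SD, n = 4) and 24.9 ± 6.92% of cells of controls (SD, n = 3; exact permutation p = 0.229). Usp18 was in 10.4 ± 4.53 and 5.71 ± 2.64%, Ube2l6 in 9.60 ± 3.60 and 5.69 ± 1.75%, Herc6 in 16.2 ± 5.41 and 10.9 ± 2.17% and Uba7 in 4.53 ± 0.674 and 3.45 ± 0.514% of these cells. In T/NK-like cells the largest difference was in Herc6, at 28.7 ± 4.51 against 22.3 ± 4.52%. In tumor-like cells Isg15 was in 15.6 ± 5.89 and 9.68 ± 6.21%, and Uba7 in 1.85 ± 0.181 and 1.67 ± 0.538%. None of the 15 comparisons passed (two-sided exact permutation tests, adjusted p from 0.312 to 0.629). None could have passed: 1 of the 35 arrangements of the 7 tumors is a share of 0.0286, and the test doubles the smaller tail. No raw p under 0.05 was therefore possible, so this outcome does not bear on whether the shares differ. Without thinning, Isg15 was in 28.0 to 62.9% of macrophage-like cells of controls and 36.9 to 79.1% of those of irradiated tumors.

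The spread of Isg15 among cells was measured next. After thinning, the 10% of macrophage-like cells with the most Isg15 held 51.1 to 81.5% of its UMIs, with the lowest value in irradiated tumor 4 and the highest in control tumor 2. That share also rises as fewer cells hold a UMI at all, from 56.5% of cells in irradiated tumor 4 down to 19.5% in control tumor 2. Cells with an Isg15 UMI held more of the other members. In macrophage-like cells with an Isg15 UMI (3257 cells) Usp18 was at 137 CPM, against 15.5 CPM in the 7382 without, a pooled ratio of 8.82 that ran from 4.93 to 11.4 over the tumors. The ratio was 3.84 for Herc6, 3.31 for Ube2l6 and 1.70 for Uba7, each above 1 in 7 of 7 tumors. In tumor-like cells the pooled ratio was 6.86 for Usp18, 5.88 for Herc6 and 2.99 for Ube2l6, again above 1 in 7 of 7 tumors. For Uba7 it was 1.14, higher in 3 of 7 tumors. The medians within tumors were 5.87, 4.85, 2.38 and 0.76 for these genes in that order. In T/NK-like cells Herc6 was at a pooled ratio of 3.54 (7 of 7 tumors), Usp18 at 4.75 and Ube2l6 at 2.04 (6 of 7 tumors each). Their medians within tumors were higher, at 3.82, 5.21 and 2.23. The 8 Uba7 UMIs in T/NK-like cells with Isg15 are too few to rank it. Cells are not replicates, so these ratios carry no test.

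The pattern was also present without the monocyte-like cells. C1q macrophage-like cells alone were split in the same way, by the presence of an Isg15 UMI. The pooled ratio was 7.85 for Usp18, 4.03 for Herc6, 3.32 for Ube2l6 and 1.54 for Uba7, each above 1 in 7 of 7 tumors. Medians within tumors were 6.89, 3.7, 2.855 and 1.49.

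**Figure D5:**
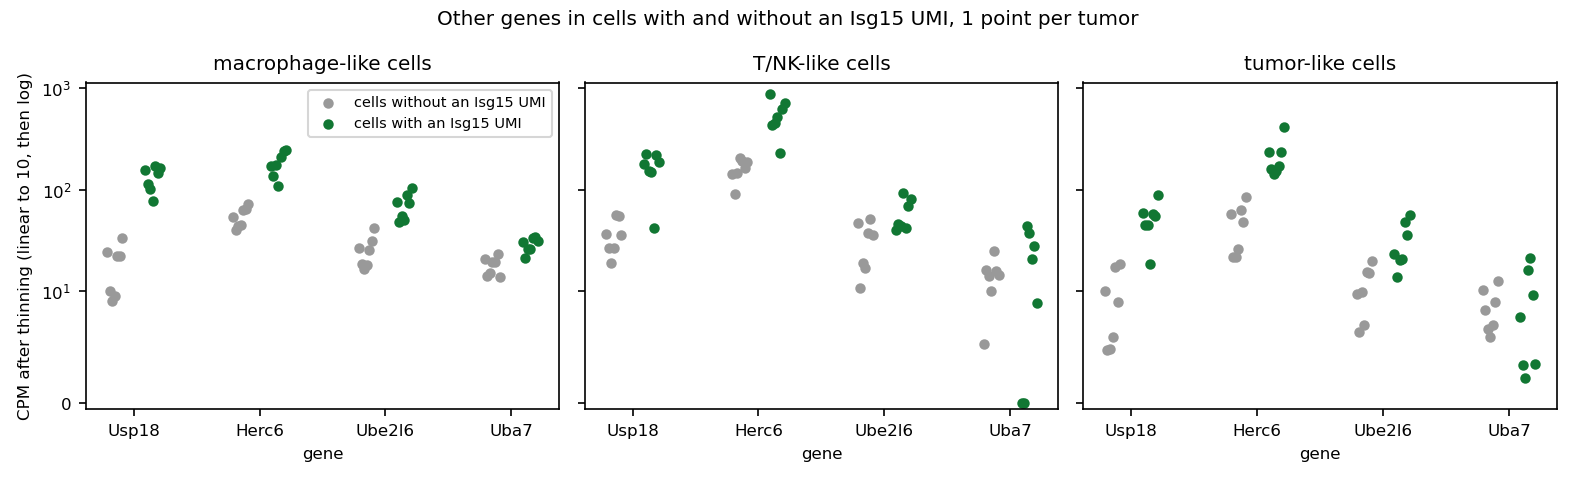
Level of Usp18, Herc6, Ube2l6 and Uba7 after thinning to 2000 UMIs (CPM, linear to 10 and log above) in cells with and without an Isg15 UMI, with 1 point for each of 7 tumors. In macrophage-like cells all 4 genes were higher in cells with Isg15 in 7 of 7 tumors; in tumor-like cells Uba7 was higher in 3 of 7.

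Over the 21 sums of tumor and class, with each class mean removed, Isg15 and Usp18 followed each other most closely among the members (Pearson r = 0.96), and Uba7 least (r from 0.53 with Herc6 to 0.68 with Ube2l6). Other than the members, the 5 genes whose log2 CPM was most like the member mean were Xaf1 (r = 0.97), Zbp1 (0.96), Irf7 (0.96), Stat2 (0.96) and Ifit1 (0.95). The comparison covered 6177 genes with at least 10 CPM in each class, with a median of -0.07. Of these 5 genes, Irf7, Stat2 and Ifit1 are on the list of further ISG15 pathway genes. Within the 7 macrophage-like sums alone these 5 ran from 0.97 to 0.99, and within the 7 T/NK-like sums from 0.74 to 0.95. The sums of 1 tumor share a library, its depth and its technical set, so these values describe likeness only.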

How the data were processed

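Raw UMI counts per gene and cell were deposited by the authors as 1 matrix per tumor; per the file headers they came from Cell Ranger 8.0.0, and the submitters' processing notes name mm10 and Seurat 4.4. Of the 33696 gene IDs, 31961 were in GENCODE M21. Herc6 and Uba7 each overlap 1 predicted gene on their strand there, so reads in the overlap are uncertain. A cell was removed when its UMIs, genes, mitochondrial or ribosomal share lay over 3 median absolute deviations from its library's median. Scrublet marked 1.54% of kept cells, which were retained. Classes were gated on marker UMIs per 10000 UMIs (at least 50, 20 and 15, from at least 5, 4 and 4 distinct markers, for macrophage-like, T/NK-like and tumor-like cells), with limits on other lists, set after the marker distributions were seen and never on the members. Counts were summed per tumor and class and tested with edgeR 4.0.16 (filterByExpr, TMM, quasi-likelihood, robust; adjusted p under 0.05), after a check on simulated data. The alternatives were DESeq2 1.42.0, its size factors, no filter on low counts, no cell filter, stricter gates, removal of Scrublet calls, a replicate block, the technical set as a term and leaving out each tumor. Chosen after seeing the data were the subset comparison, the class means without each tumor and the fit on C1q macrophage-like cells alone. Thinned shares were tested by exact permutation over tumors, which were too few for a p under 0.05. The members and lists were chosen with earlier results of these data known. The named genes were the members, genes of the fixed lists, gate markers, the Y-linked genes of the sex check, and the 5 genes most correlated with the member mean; genes called under alternatives were named after their values were seen. Same-numbered irradiated and control tumors did not deviate together (correlations from -0.44 to 0.12), so the numbers were not taken as pairs. Intervals and floors cover counting error only. Some items of the labels and lists are not reported here.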

Additional observations from a re-analysis of the deposited data

How the results depend on the processing

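Genes called for irradiated against control tumors were 0 in each class in the reported fits. DESeq2's Wald test called 4 genes in macrophage-like (Cxcl3 higher; Rgs5, Spp1 and Mt1 lower), 1 in T/NK-like (Scart1) and 2 in tumor-like cells (C1qc and Fndc1, lower). In T/NK-like cells 46 genes were called with no filter on low counts, 1 with the technical set as a term (Plxdc2) and 0 to 1 when a tumor was left out (1 without irradiated tumor 4, Scart1). For the difference between classes, DESeq2 called 1 gene (Epas1), no filter 275, removal of Scrublet calls 1 (Mecom) and leaving out a tumor 0 to 1 (1 without control tumor 2, Dlc1). None of these was a member, and the cause was not tested. Member medians stayed above 0 in these alternatives, but not within technical set 1 (-0.02 in macrophage-like and -0.09 in T/NK-like cells): leaving out 1 tumor gave 0.56 (irradiated 4) to 1.01 (control 1) in macrophage-like, 0.13 (irradiated 4) to 0.41 (irradiated 1) in T/NK-like and 0.41 (control 2) to 1.33 (control 1) in tumor-like cells; the technical set as a term gave 0.32, 0.20 and 0.21, and a stricter gate 0.49 in T/NK-like cells. The replicate block gave 0 calls in each class and medians of 0.49, 0.14 and 0.53. Uba7 in tumor-like cells ran from -0.021 without control tumor 3 to 0.35 without control tumor 1 (log2), and the difference in its share of cells from -0.051 to 0.48 percentage points on leaving out the same tumors. Member calls between classes did not change in any alternative. Depth limits Uba7 in T/NK-like cells (73 UMIs) and all NK-like values (62 cells).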

Other observations

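Transcripts of 8 interferon genes were counted and were rare, and other interferon genes were not counted. Ifnb1, the beta interferon gene, was found as 138 UMIs in 42 of 34300 kept cells, of which 63 UMIs were in macrophage-like, 1 in T/NK-like and 38 in tumor-like cells. Its counts were 9, 3 and 34 UMIs in control tumors 1, 2 and 3 and 50, 8, 17 and 17 UMIs in irradiated tumors 1, 2, 3 and 4. In macrophage-like cells alone they were 1, 2 and 14 UMIs in controls and 16, 5, 8 and 17 UMIs in irradiated tumors, where the fitted difference of Ifnb1 was 1.08 ± 0.79 (SE, log2, edgeR adjusted p = 0.858). Ifng, the gamma interferon gene, was found as 805 UMIs in 292 cells, 720 of them in T/NK-like cells, where irradiated against control tumors differed by -0.06 ± 0.66 (SE, log2, edgeR adjusted p = 0.997). Ifna1, Ifna2, Ifna4, Ifna5, Ifnl2 and Ifnl3 were at 0 UMIs in the kept cells.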
